A study of Schizosaccharomyces pombe with 4 samples.

Results

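The sfp1 knockout of fission yeast (Schizosaccharomyces pombe) was set directly against the ifh1 knockout, gene by gene. Genes were taken when their mean over the 4 genotypes of the series was at least 10 FPKM and their length at least 300 bp, which left 4283 of 5129 gene models; the deleted genes sfp1 and ifh1 were left out. FPKM is the number of sequenced fragments per kilobase of gene, scaled for the depth of sequencing. The samples were the wild type and 3 deletion strains, sfp1, ifh1 and fhl1, each with 1 sample of total RNA from untreated cells in exponential growth. The wild type and the fhl1 knockout entered that mean but no difference, and are otherwise given only for placing genes. The labels do not say whether a strain was 1 clone, which marker replaced the gene or which medium was used.

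Beside the 1 value per gene and genotype, the table gives lower and upper bounds of unstated level. Therefore no difference has a replicate check, a standard deviation or a p-value. The difference of a gene is log2(FPKM + 1) in the sfp1 knockout minus the same in the ifh1 knockout: above 0 the gene was higher without sfp1, below 0 it was higher without ifh1. A difference of 1 on this scale is the 2-fold limit used for single genes. Bounds are called apart where the lower bound in one knockout lay above the upper bound in the other. In RNA from a whole culture, a lower level in every cell and fewer cells at a high level cannot be told apart.

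Sfp1 is a zinc finger transcription factor that, in budding yeast, acts downstream of the growth kinase complex TORC1 on genes for making ribosomes. Ifh1 is a coactivator that, in budding yeast, sits on the promoters of ribosomal protein genes through the forkhead protein Fhl1. A ribosome is built from ribosomal RNA, made by RNA polymerase I and III, and from ribosomal proteins; biogenesis factors cut, modify and fold the RNA and then leave the particle. Ribosomal protein genes and biogenesis genes are often regulated together with growth, yet have different promoters. The comparison addresses which genes depend differently on the 2 regulators.

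The deleted genes matched the labels. The sfp1 gene was at 0.0818 FPKM in the sfp1 knockout and at 270.3 FPKM in the ifh1 knockout. The ifh1 gene was at 0.556 FPKM where it had been deleted and at 105.3 FPKM in the sfp1 knockout. The level of fhl1 was 50.7 FPKM in the sfp1 knockout and 45.1 FPKM in the ifh1 knockout. Of the 3 genes on each side of the 2 deletions, the 8 that passed the minimum differed by at most 0.47 in size (dus3, −0.47). The nutritional marker genes ura4, leu1, ade6, his3 and lys1 were present in both knockouts, at 252.4 FPKM in the ifh1 knockout for ura4 and 258.0 in the sfp1 knockout. They were not all at equal levels. The differences were 0.03 for ura4, 0.10 for ade6, 0.46 for leu1, 0.85 for his3 and 0.94 for lys1, with bounds apart for lys1 only.

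Most genes were at similar levels in both knockouts. The median difference was 0.03, the quartiles were −0.20 and 0.23, and 3520 genes (82.2%) were within 0.5 of 0. In the sfp1 knockout 64 genes (1.49% of those kept) were at least 2-fold higher, and 76 (1.77%) were lower by that factor or more. Bounds were apart for 49 of the higher genes (1.14% of those kept) and 59 of the lower genes (1.38%). For differences of any size, bounds were apart for 52 higher and 73 lower genes. The 2 criteria thus pick mostly the same genes, and bounds apart is not separate support for a difference past the limit. With values scaled to an equal sum outside ribosomal protein genes, the counts were 47 higher and 100 lower, so that 32.0% of these genes were higher against 45.7% without scaling. Just inside the limit, between 1 and 1.1, were 22 higher genes, and just outside, between 0.9 and 1, were 24; on the lower side these bands held 19 and 36.

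**Figure D1:**
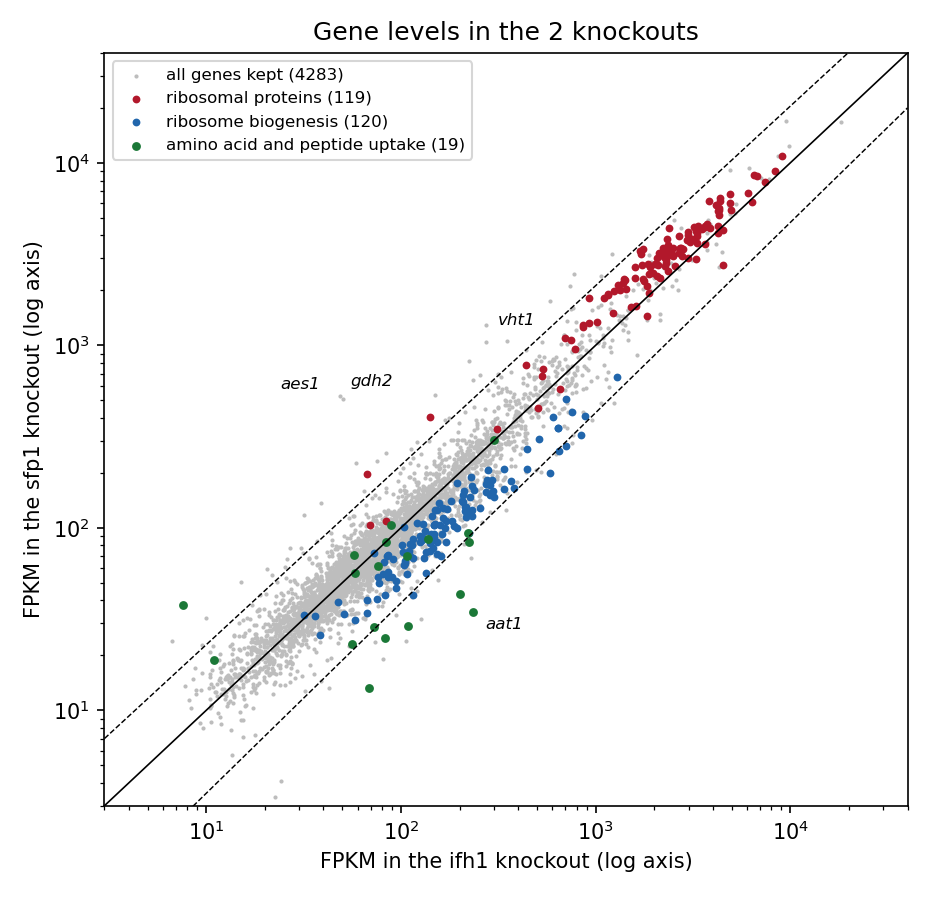
FPKM of each of the 4283 genes in the ifh1 knockout (x axis) and the sfp1 knockout (y axis), both on log axes, with 119 ribosomal protein genes, 120 ribosome biogenesis genes and 19 uptake genes coloured. The solid line marks equal levels and the dashed lines the 2-fold limit; ribosomal protein genes lie mostly above the solid line and biogenesis genes below it.

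The genes for the ribosome split in opposite directions. Of 138 cytosolic ribosomal protein genes, 119 were kept; the other 19 were shorter than 300 bp. Among those left out, the 78 bp genes rpl4101 (739895 FPKM in the sfp1 knockout versus 897273 in the ifh1 knockout) and rpl4102 (548334 and 540721 FPKM) held 46.5% and 52.0% of the summed FPKM of the 2 knockouts, and their part in the values of other genes was not tested. Of the 119, 110 were higher in the sfp1 knockout than in the ifh1 knockout, with a median difference of 0.38, against 53.3% of all genes kept above 0 and their median of 0.03. With quantile normalization, which gives both knockouts the same distribution of values, 78 of the 119 were above 0 and the median was 0.11; with no length minimum, 125 of 138 were above 0 with a median of 0.36. Of 131 ribosome biogenesis genes 120 were kept, and 119 of them were lower in the sfp1 knockout, with a median of −0.68. Past the 2-fold limit were 2 ribosomal protein genes, both higher (background 1.49%), and 16 biogenesis genes, all lower (background 1.77%), 15 of these with bounds apart.

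Ribosomal proteins form the body of the ribosome. Small-subunit genes (46 kept, 44 above 0) had a median of 0.44 and large-subunit genes (73 kept, 66 above 0) one of 0.34; with quantile normalization these medians were 0.14 and 0.078. The gene rpl1603 (SPBC2G2.05), 1 of 3 copies for the large-subunit protein uL13, was at 197.0 FPKM in the sfp1 knockout versus 67.3 in the ifh1 knockout (difference 1.53). The gene rpl3002 (SPAC1250.05), 1 of 2 copies for eL30, was at 403.2 and 140.3 FPKM (1.52). These were the 2 past the limit, and both are copies at a low level for their kind. Next among large-subunit genes was rpl702, at 1829 and 924.7 FPKM (0.98, bounds overlapping).

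Among small-subunit genes, rps1001, a copy for eS10, was at 3356 FPKM in the sfp1 knockout versus 1742 in the ifh1 knockout (0.95). The copy rps2601 for eS26 was at 3180 and 1713 FPKM (0.89), and rps1402 for uS11 at 4400 and 2382 (0.88). None of these 3 had bounds apart. At the other end, 9 ribosomal protein genes were below 0. The lowest was rpp202, a gene for the acidic stalk protein P2, at 2772 FPKM in the sfp1 knockout versus 4522 in the ifh1 knockout (−0.71). The uS11 copy rps1401 was at 1455 and 1835 FPKM (−0.34), opposite in sign to rps1402.

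The 119 genes code for 65 proteins, 49 of them with several copies kept. With copies summed, 60 proteins were above 0 and 5 below, the median was 0.37, and 0 proteins passed the 2-fold limit; the range ran from −0.14 for uS5 (rps2) to 0.89 for uL13. Copies of the same protein lay a median of 0.26 apart, and in 44 of the 49 proteins every copy was above 0. Copies were farthest apart for eL30, where rpl3001, at 7812 FPKM in the sfp1 knockout versus 7379 in the ifh1 knockout, differed by 0.08 against 1.52 for rpl3002. For uL13, rpl1602 stood at 3306 and 1683 FPKM (0.97) and rpl1601 at 1899 and 1157 FPKM (0.71). The sources used here do not say how reads shared between near-identical copies were assigned, so the values of single copies are uncertain.

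**Figure D2:**
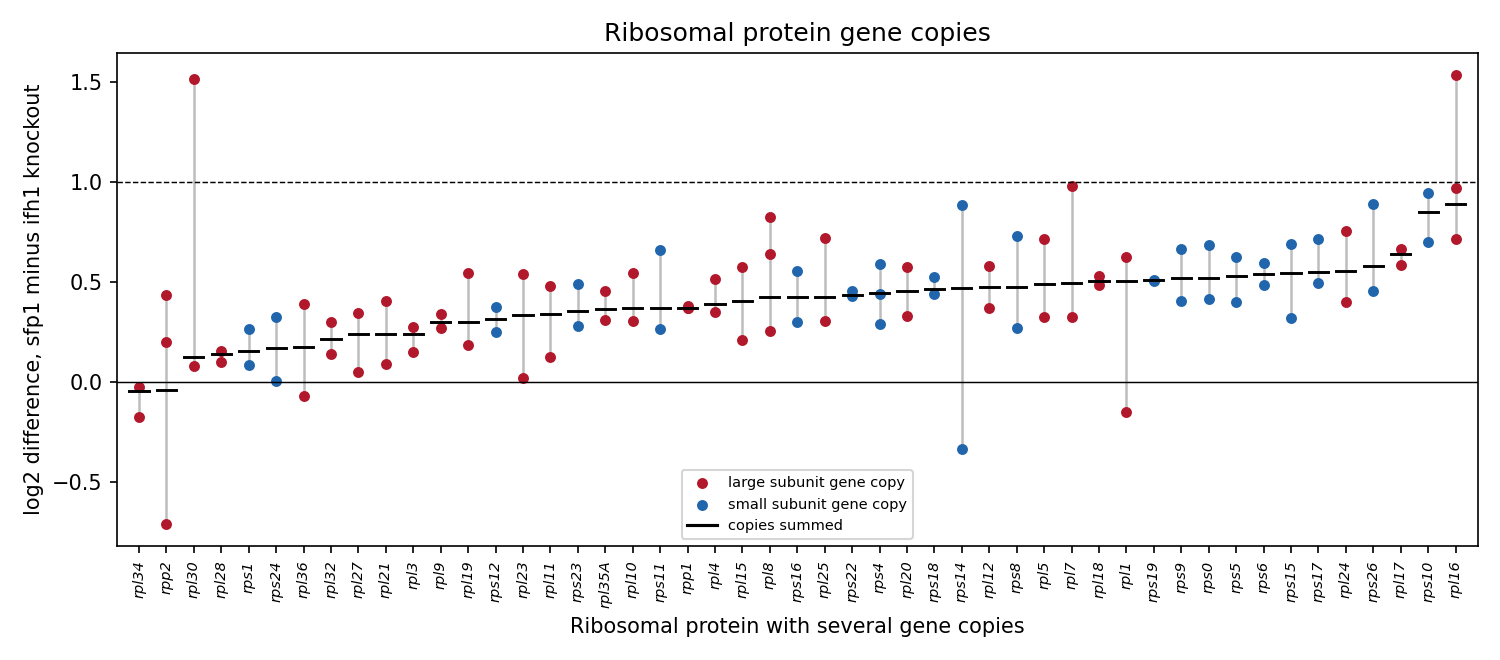
Difference of each gene copy (points, log2 scale, sfp1 knockout minus ifh1 knockout) for the 49 ribosomal proteins with several copies kept, ordered by the difference of the summed copies (black bars). Most points lie between 0 and 1; the eL30 copies (rpl30) are 1.43 apart and 1 copy each of eL30 and uL13 (rpl16) is above the dashed 2-fold line.

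The promoters of ribosomal protein genes carry known words. Sequences of 250 bases before the annotated mRNA start were read from the RefSeq assembly ASM294v3 for 4282 genes and searched on both strands; for 283 of these the annotation has no 5′ UTR, so the window ends at the coding start. Matches of different words were counted separately, even where they overlapped. The HomolD box (CAGTCACA), which stands in place of a TATA box in many fission yeast ribosomal protein genes, was in 64.7% of the 119 windows and 2.83% of all windows. Its first bases lay a median of 52 bases before the start, with quartiles at 47 and 57. The HomolE core (ACCCTACC), a second element of these genes, was in 31.9% against 1.59%. The 7 letters CAGTCAC alone, a search added after the data were seen, were in 89.9% against 4.69%.

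Stretches of 110 bases that end just before the mRNA start are shown for 5 ribosomal protein genes, to set the promoters of genes with large and small differences side by side. They are written 5′ to 3′ on the coding strand in lower case, with HomolD and HomolE core letters in capitals. The positions on ASM294v3 are chrI:5095880-5095989 (minus strand) for rpl3002, chrII:1792253-1792362 (plus) for rps1402, chrI:3319140-3319249 (plus) for rps602, chrIII:2096037-2096146 (minus) for rps2 and chrII:3443144-3443253 (plus) for rpl1603.
rpl3002: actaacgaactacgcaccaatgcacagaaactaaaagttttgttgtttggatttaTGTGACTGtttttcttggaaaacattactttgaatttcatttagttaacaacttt
rps1402: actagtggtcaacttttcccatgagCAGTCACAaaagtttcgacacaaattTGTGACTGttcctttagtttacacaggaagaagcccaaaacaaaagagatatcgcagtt
rps602: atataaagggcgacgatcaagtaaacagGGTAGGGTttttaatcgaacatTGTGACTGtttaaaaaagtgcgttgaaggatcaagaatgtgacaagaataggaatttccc
rps2: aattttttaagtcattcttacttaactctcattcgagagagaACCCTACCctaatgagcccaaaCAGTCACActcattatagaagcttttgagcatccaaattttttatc
rpl1603: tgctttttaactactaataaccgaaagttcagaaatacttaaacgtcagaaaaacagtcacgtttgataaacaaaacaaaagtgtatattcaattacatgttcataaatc
In order, the differences of these genes were 1.52, 0.88, 0.60, −0.14 and 1.53. The gene rps2 has both words and was slightly lower in the sfp1 knockout, while rps602, also with both, was at 3208 FPKM in the sfp1 knockout versus 2123 in the ifh1 knockout. Within the 119 genes, the median difference was 0.38 with HomolD and 0.38 without it, and 0.31 with the HomolE core and 0.39 without it. Most windows counted as without HomolD still hold CAGTCAC, as the rpl1603 stretch does. The equal medians therefore do not compare genes with and without a box of this kind.

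Ribosome biogenesis factors were lower in the sfp1 knockout across all 3 lists. The small-subunit processome and 40S assembly list, whose members process the precursor of the 18S ribosomal RNA, had all 55 kept genes below 0 (median −0.62) and 4 past the limit. The 60S assembly and export list had all 54 below 0 (median −0.71) and 9 past the limit. The snoRNP proteins, which carry the small RNAs that guide modification of ribosomal RNA, had 10 of 11 below 0 (median −0.85) and 3 past the limit. The 1 member above 0 was hit1, a snoRNP assembly factor, at 0.08. Of the 11 members left out, nop10 was too short and 10 were under 10 FPKM. Among all genes kept, 2002 of 4283 were below 0 and 1.77% were past the limit on the lower side.

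The 3 lowest genes of each list all had bounds apart. In the 40S list, cms1, a subunit of the U3-containing early particle, was at 56.8 FPKM in the sfp1 knockout versus 134.3 in the ifh1 knockout (−1.23). The nucleolar factor gene utp23 was at 69.7 and 161.4 FPKM (−1.20) and tsr1, a late 40S factor, at 71.5 and 152.9 (−1.09). In the 60S list, the RNA helicase gene dbp2 was at 199.1 and 582.2 FPKM (−1.54). The RNA helicase gene dbp9 was at 42.7 and 114.8 FPKM (−1.40), and tif6, whose product keeps the 2 subunits from joining too early, at 282.1 and 703.6 (−1.32).

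Among snoRNP genes, nhp2, a subunit of the box H/ACA particles that make pseudouridine, was at 321.0 FPKM in the sfp1 knockout versus 840.1 in the ifh1 knockout (−1.39). Fibrillarin (fib1), the methyltransferase of the box C/D particles, was at 264.7 and 644.7 FPKM (−1.28). Its partner nop56 was at 408.7 and 877.0 FPKM (−1.10). The lower values of all 3 were in the sfp1 knockout. By annotation wording, a grouping made after the data were seen, RNA helicases (33 kept) had a median of −0.34 with 28 below 0. On the lower side 4 were past the limit (background 1.77%). Many of these helicases, dbp2 and dbp9 among them, are already counted in the biogenesis lists, so this is no separate group.

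The windows of biogenesis genes rarely held the ribosomal protein words: HomolD was in 1 of 120 (0.833%) and the HomolE core in 1 of 120. The palindrome AAAATTTT, chosen after the data were seen, was in 11.7% of biogenesis windows, 7.12% of all windows, 28.9% of the windows of the 76 genes 2-fold lower and 3.13% of those of the 64 genes 2-fold higher. Over all genes the median difference was −0.12 with this word and 0.03 without it. Of the lower genes, 2 with it, dbp2 (chrII:3665359-3665468, minus strand) and fib1 (chrII:2983711-2983820, minus strand), and 2 without it, tif6 (chrIII:2223038-2223147, plus strand) and nhp2 (chrI:4773168-4773277, minus strand), are shown in the same way, with AAAATTTT in capitals.
dbp2: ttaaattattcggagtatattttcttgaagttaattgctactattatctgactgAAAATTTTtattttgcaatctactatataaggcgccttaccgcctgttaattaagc
fib1: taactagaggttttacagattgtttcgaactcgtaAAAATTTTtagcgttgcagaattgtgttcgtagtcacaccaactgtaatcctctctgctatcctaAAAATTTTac
tif6: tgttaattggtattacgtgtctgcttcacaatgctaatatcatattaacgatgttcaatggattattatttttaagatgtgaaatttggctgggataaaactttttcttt
nhp2: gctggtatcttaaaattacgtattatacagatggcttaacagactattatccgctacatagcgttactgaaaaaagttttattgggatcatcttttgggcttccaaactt
None of the 4 stretches holds HomolD or the HomolE core, in contrast to the rpl3002 and rps602 stretches above.

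For the RNA polymerases that make ribosomal RNA, the lists had different medians. RNA polymerase I genes (15 kept) had a median of −0.65 with 12 below 0. Its largest subunit, nuc1, was at 154.8 FPKM in the sfp1 knockout versus 349.8 in the ifh1 knockout (−1.17, bounds apart), the subunit gene rpa43 at 32.1 and 64.0 FPKM (−0.97) and the subunit gene rpa2 at 172.6 and 323.4 (−0.90, bounds apart). The 3 members above 0 were rrn11 (0.14), rrn7 (0.06) and rrn6 (0.02), all factors that bring the polymerase to its promoter. The RNA polymerase III list (19 kept, 13 below 0) had a median of −0.17 and no gene past the limit. It also holds genes of the transcription factors TFIIIB and TFIIIC and the inhibitor gene maf1. All its polymerase III subunit genes were below 0, from rpc31 (−0.04) to rpc2 (−0.67), the lowest of the list. Its 6 members above 0 were TFIIIC subunit genes and the TFIIIB gene brf1.

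Of 40 translation factor genes kept, 33 were below 0, with a median of −0.27, and 0 passed the limit. The lowest was tif11, the initiation factor eIF1A, at 885.3 FPKM in the sfp1 knockout versus 1628 in the ifh1 knockout (−0.88). Subunits of eIF2, which brings the initiator tRNA, followed: tif211 at 424.5 and 735.5 FPKM (−0.79) and tif213 at 218.3 and 366.7 (−0.75). Among the 19 cytosolic tRNA synthetases, which load amino acids on tRNA, 10 were below 0 (median −0.02). Mitochondrial ribosomal protein genes (52 kept, 31 below 0) had a median of −0.04.

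**Figure D3:**
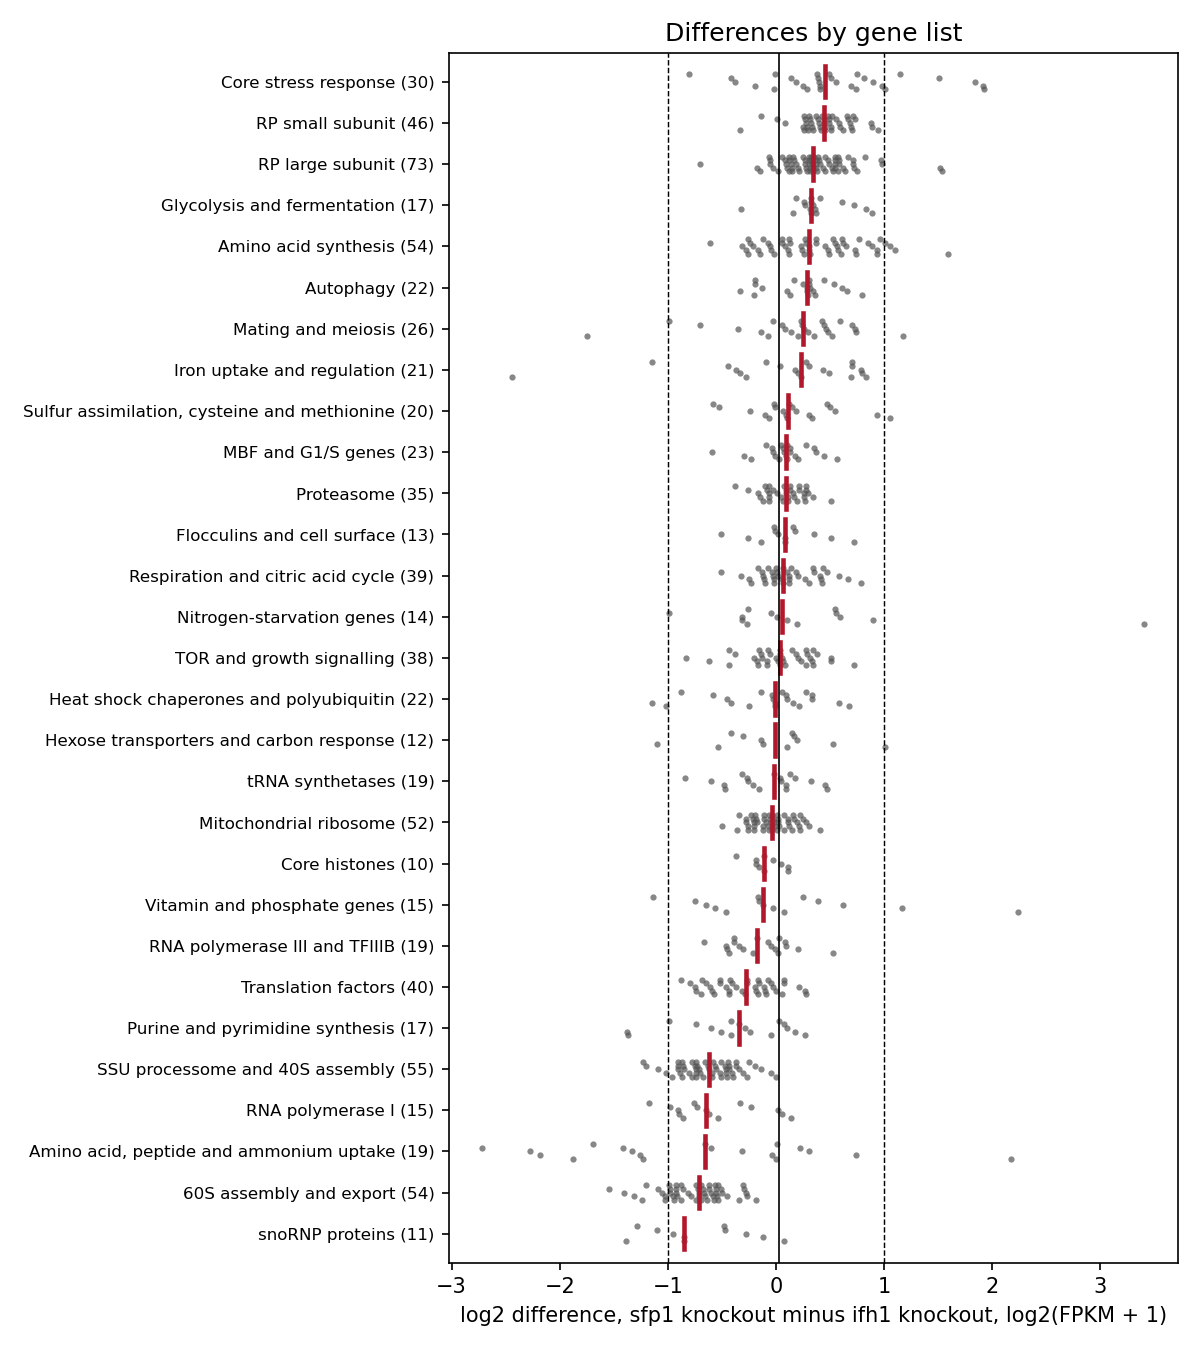
Differences of single genes (points, log2 scale, sfp1 knockout minus ifh1 knockout) in the gene lists, with the number of genes kept in brackets, the list median as a red bar and the median of all genes as a solid line; dashed lines mark the 2-fold limit. The snoRNP, 60S, uptake, RNA polymerase I and 40S lists have the lowest medians, and the core stress and ribosomal protein lists the highest.

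The lowest single value was that of an amino acid transporter gene. Of 19 kept genes for the uptake of amino acids, peptides and ammonium, 14 were below 0 (median −0.66), and 9 were at least 2-fold lower, all with bounds apart, against a background of 1.77%. The amino acid permease gene aat1 (chromosome II, 111309 to 113048 in the deposited table) was at 34.6 FPKM in the sfp1 knockout versus 233.2 in the ifh1 knockout (−2.72), the lowest of all 4283 differences. The permease gene SPAC1039.01 was at 13.3 and 68.2 FPKM (−2.28) and per1 at 43.3 and 200.8 (−2.19). The oligopeptide transporter gene isp4 was at 28.9 and 109.0 FPKM (−1.88) and the peptide transporter gene ptr2 at 25.0 and 83.2 (−1.69). The other 4 were the proline transporter gene put4 (−1.42), isp5 (−1.33), the gamma-aminobutyric acid and polyamine transporter gene SPCC584.13 (−1.26) and the glutathione transporter gene pgt1 (−1.23).

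The list was not uniform. The cysteine transporter gene SPBPB10D8.01 was at 37.8 FPKM in the sfp1 knockout versus 7.57 in the ifh1 knockout (2.18, bounds apart), and nrg1 was at 0.74. The ammonium transporter gene amt1 (0.01), the basic amino acid permease gene cat1 (0.23) and meu22 (0.00) were close to equal. The list also counts the vacuolar transporter genes fnx1 (−0.31) and fnx2 (−0.03). Outside the list, the oligopeptide transporter gene opt3 went the other way from isp4 and ptr2. It was at 50.4 FPKM in the sfp1 knockout versus 23.1 in the ifh1 knockout (1.09, bounds apart, or 0.86 with a pseudocount of 10). By annotation wording, all transporters and permeases (171 kept) had a median of −0.09, with 19 past the limit on the lower side (background 1.77%) and 4 on the higher side (background 1.49%).

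The word GATAAG, bound by GATA-type zinc finger factors and chosen after the data were seen, was in 47.4% of the 19 uptake windows and 10.4% of all windows. Within the uptake list the median difference was −0.31 with it and −0.96 without it, and aat1, isp4 and ptr2 had no match. The put4 window (chrI:5492914-5493163, plus strand) is shown with GATAAG capitals on both strands, and the aat1 stretch (chrII:113366-113475, minus strand) with AAAATTTT capitals, because these genes stand for the list with and without GATAAG.
put4: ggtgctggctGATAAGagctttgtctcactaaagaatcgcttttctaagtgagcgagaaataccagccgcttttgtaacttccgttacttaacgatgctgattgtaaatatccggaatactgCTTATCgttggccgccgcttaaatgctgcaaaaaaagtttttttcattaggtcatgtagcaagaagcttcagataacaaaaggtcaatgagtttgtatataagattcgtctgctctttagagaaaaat
aat1: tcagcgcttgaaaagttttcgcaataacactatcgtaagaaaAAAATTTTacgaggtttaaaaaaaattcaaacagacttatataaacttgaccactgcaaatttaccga
The 2 genes had differences of −1.42 and −2.72 on the log2 scale.

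Most genes of amino acid synthesis and of glycolysis were above 0. Of 54 amino acid synthesis genes kept, 40 were above 0 (median 0.31) and 4 were at least 2-fold higher (background 1.49%), 2 of them with bounds apart (background 1.14%); of all genes, 53.3% were above 0. The homocitrate synthase gene lys4, the first enzyme of lysine synthesis, was at 1753 FPKM in the sfp1 knockout versus 580.6 in the ifh1 knockout (1.59). The lysine gene lys3 was at 948.2 and 440.8 FPKM (1.10), and the branched-chain aminotransferase gene eca39 at 1599 and 765.6 (1.06); arg4 was at 1.01. With quantile normalization lys3 was at 0.99 and eca39 at 0.88, and with an equal sum outside ribosomal protein genes arg4 was at 0.94. Further lysine genes lay just under the limit, lys12 at 0.97, lys1 at 0.94 and lys9 at 0.94. The homoaconitate hydratase gene lys2, however, was near 0 (0.08), and lys7 was the lowest of the list at −0.60.

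Of 17 glycolysis and fermentation genes, 16 were above 0 (median 0.33) and 0 passed the limit. The enolase gene eno101 was at 9116 FPKM in the sfp1 knockout versus 4903 in the ifh1 knockout (0.89), and the glyceraldehyde 3-phosphate dehydrogenase gene tdh1 at 16948 and 9514 (0.83). The exception was adh4 (−0.33). Hexose transporter and carbon response genes (12 kept, 6 above 0) had a median of −0.0058, with the hexose transporter gene ght5 at 1.01 and the glycerol 3-phosphate dehydrogenase gene gut2 at −1.10. Purine and pyrimidine synthesis genes (17 kept, 12 below 0) had a median of −0.34. The dihydroorotate dehydrogenase gene ura3 was at 289.9 and 755.7 FPKM (−1.38) and the IMP dehydrogenase gene gua1 at 481.4 and 1240.4 (−1.36), both with bounds apart. The CTP synthase gene cts1, outside this list, was at 201.4 and 523.8 FPKM (−1.37).

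Core stress response genes, whose products protect cells under many stresses, had 24 of 30 above 0 (median 0.45) and 6 at least 2-fold higher, all with bounds apart (background 1.14%). Neighbouring genes of the But2 family were at 226.4 FPKM in the sfp1 knockout versus 59.0 in the ifh1 knockout (SPAC27D7.09c, 1.92) and at 1037 and 273.6 (SPAC27D7.11c, 1.92). The gene gst2 for a glutathione S-transferase stood at 536.6 and 149.2 FPKM (1.84), and the quinone reductase gene obr1 at 2115 and 739.7 (1.51). The catalase gene ctt1 was at 78.3 and 79.2 FPKM (−0.02) and the small heat shock gene hsp16 at −0.81, so members went both ways. The word TGACGT, the core of the CRE site of Atf1-type factors, was in 23.3% of these windows and 5.28% of all windows.

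Other lists had medians nearer 0. Autophagy genes (22 kept, 17 above 0) had a median of 0.29 and 0 past the limit, led by atg10 at 0.80. Iron genes (21 kept) had a median of 0.23 with 14 above 0, yet the siderophore transporter gene str3 was at 3.35 FPKM in the sfp1 knockout versus 22.6 in the ifh1 knockout (−2.44) and the copper transporter subunit gene ctr4 at −1.14, or −0.88 with a pseudocount of 10. Mating and meiosis genes (26 kept, 19 above 0) had a median of 0.25, with dmc1, a meiotic recombinase gene, at 1.18 and mcp7 at −1.74. Heat shock chaperones (−0.00), respiration (0.07), the proteasome (0.10), histones (−0.11), G1/S genes (0.10), sulfur (0.11), TOR signalling (0.04) and flocculins and cell surface genes (0.08) had medians within 0.11 of 0. Among their members past the limit were the homocysteine synthase gene met17 at 1.06 and the ThiJ domain genes hsp3103 at −1.14 and hsp3104 at −1.02, the last 2 with overlapping bounds. Vitamin and phosphate genes (15 kept, median −0.12) held the biotin transporter gene vht1 at 2.24 and the thiamine transporter gene thi9 at −1.14.

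The largest single difference was gdh2 (SPCC132.04c), the NAD-dependent glutamate dehydrogenase gene, whose product releases ammonium from glutamate. It stood at 524.5 FPKM in the sfp1 knockout with bounds of 355.5 and 692.6, and at 48.4 in the ifh1 knockout with bounds of 35.1 and 61.6 (3.41). Next on the higher side was aes1, annotated as a phenazine biosynthesis family protein, at 505.4 and 50.3 FPKM (3.30), then vht1 at 1293 and 272.8 (2.24). The NADP-dependent enzyme gdh1, which runs the opposite way, was at 737.9 and 505.2 FPKM (0.55). Of 14 nitrogen-starvation genes, gdh2 was the only one past the limit, and the list median was 0.06. This list holds none of the 9 uptake genes at least 2-fold lower, such as isp4, isp5 and put4, so it does not speak for them.

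Below these, the 15 highest differences included cbm1, a gene for a protein with a cellulose-binding domain (819.8 FPKM in the sfp1 knockout versus 223.9 in the ifh1 knockout, 1.87), and SPCC70.08c, a methyltransferase gene (137.4 and 38.9 FPKM, 1.79). They also held SPBC19C7.04c (1.86), mug15 (1.70), the pyridoxamine phosphate oxidase gene SPBC725.03 (1.68), oga1 (2466 and 778.9 FPKM, 1.66), SPAC3G6.05 (1.61) and the oxidoreductase gene SPAPB24D3.08c (1.61). All but mug15 had bounds apart. By annotation wording, dehydrogenases and reductases (152 kept) had a median of 0.21, with 14 past the limit on the higher side (background 1.49%) and 4 on the lower side (background 1.77%).

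Among the 15 lowest, besides the transporters and dbp2, were the methyltransferase gene efm6 (23.9 FPKM in the sfp1 knockout versus 106.6 in the ifh1 knockout, −2.11) and the transporter gene mfs1 (19.2 and 81.0 FPKM, −2.02). The zinc finger gene SPAC683.02c was at 31.8 and 126.2 FPKM (−1.96), mcp7 at 68.0 and 230.3, the guanine nucleotide transporter gene ggc1 at −1.60 and the kinase gene ppk1 at −1.56. The remaining 2 had overlapping bounds: SPCC594.03, at 4.10 and 24.2 FPKM (−2.30), is 327 bp long, and the peptidyl-tRNA hydrolase gene pth1 was at 13.2 and 42.6 FPKM (−1.62). At the midpoints of the bounds SPCC594.03 had 4 fragments in the sfp1 knockout against 14 in the ifh1 knockout on an assumed common scale, against 7328.5 and 676.5 for gdh2.

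**Figure D4:**
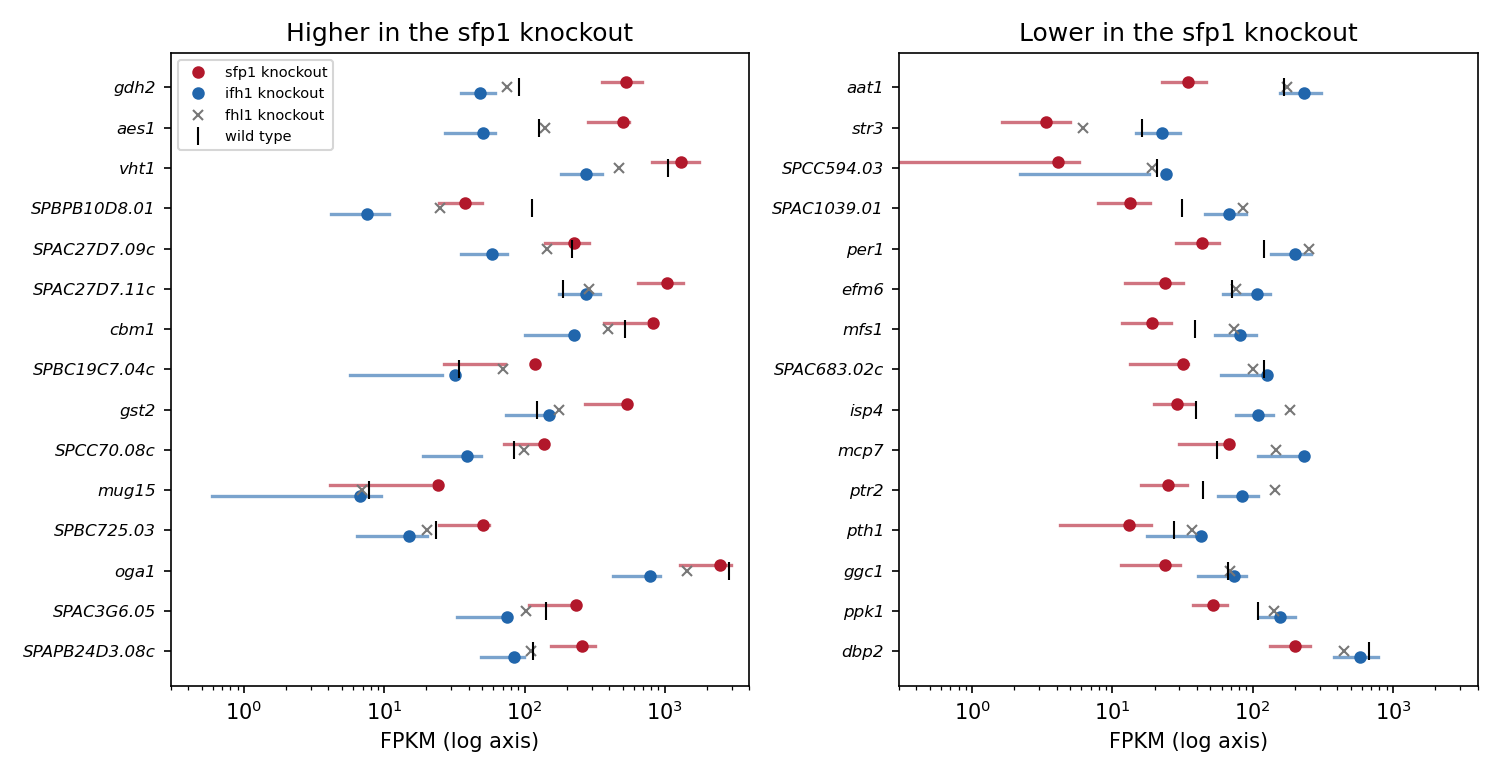
FPKM (log axis) of the 15 genes highest and the 15 lowest in the sfp1 knockout relative to the ifh1 knockout, with the bounds of both knockouts as bars (a lower bound of 0 is drawn at the left edge) and the fhl1 knockout and wild type as marks without bounds. Bars of the 2 knockouts overlap for mug15, SPCC594.03 and pth1; for some genes, cbm1 among them, the FPKM lies above the upper bound.

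The other genotypes, which do not enter the differences, are given for placing these genes. In the fhl1 knockout 59 of the 64 higher genes and 63 of the 76 lower genes lay between the sfp1 and ifh1 knockouts, against 52.1% of all genes kept. On the log2 scale the fhl1 knockout was nearer the ifh1 knockout for 45 of the 64 and 75 of the 76, against 2516 of 4283. The wild type was nearer the ifh1 knockout for 31 of the 64 and 66 of the 76, against 2331 of 4283. The wild type lay between the 2 knockouts for 47 of the 64 and 61 of the 76, against 32.6% of all genes kept. For ribosomal protein genes the wild type lay above both in 118 of 119, against 1559 of 4283. The fhl1 knockout was nearer the sfp1 knockout for 98 of 119, against 1767 of 4283, and lay above both for 62 of 119. The wild type was also nearer the sfp1 knockout, for 110 of 119, against 1952 of 4283. For biogenesis genes the fhl1 knockout was nearer the ifh1 knockout for 100 of 120, and so was the wild type for 100 of 120. For the lower, biogenesis and ribosomal protein genes, nearness of this kind was therefore not particular to the fhl1 knockout. For the 64 higher genes the 2 genotypes differed, with 45 nearer the ifh1 knockout in the fhl1 knockout and 31 in the wild type. Genes chosen for a large gap between 2 values leave much room between them, so a share between them above that of all genes is no finding by itself.

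**Figure D5:**
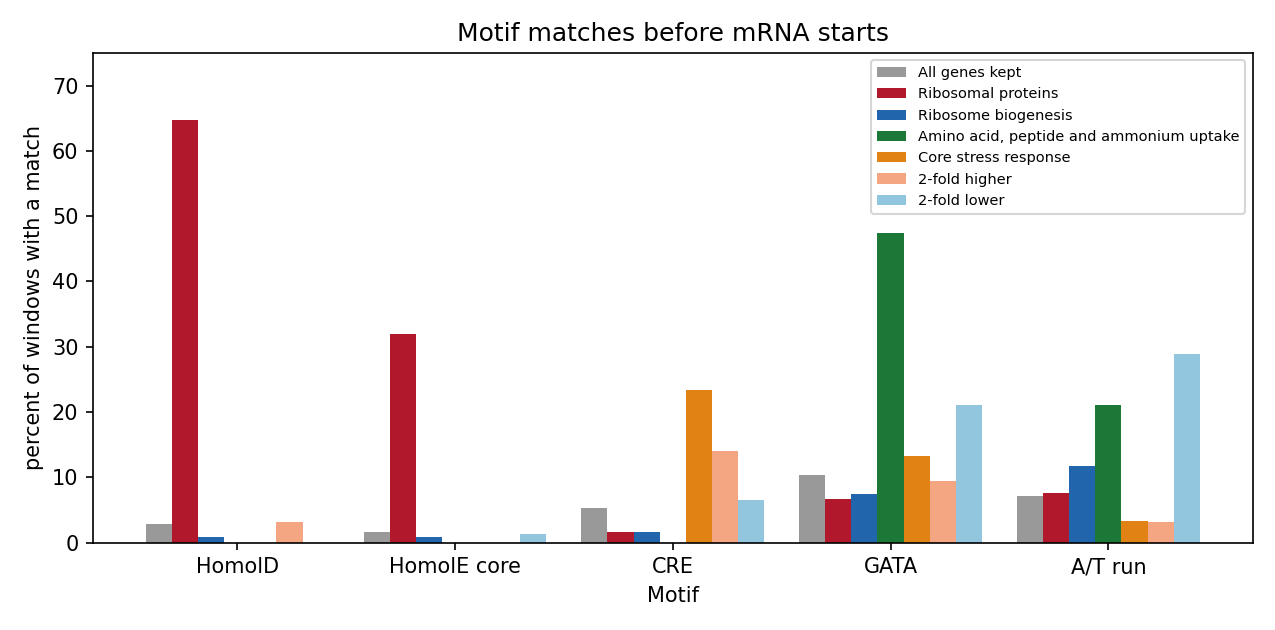
Percent of 250-base windows before the mRNA start with a match on either strand (y axis) for 5 short words (x axis), in all genes kept, 4 gene lists and the genes past the 2-fold limit each way. HomolD and the HomolE core stand out in ribosomal protein genes, the GATA word in uptake genes and the A/T run in the genes 2-fold lower.

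Differences varied with level and, less, with length. Among the 207 genes whose mean reached 1000 FPKM the median difference was 0.31; without ribosomal protein genes it was 0.18 over 98 genes, against 0.38 for the 109 ribosomal protein genes there. Below 1000 FPKM the medians of 4 level classes ran from −0.03 to 0.07. By length they fell from 0.09 at 300 to 500 bp to −0.02 from 2000 bp on, and on chromosomes I, II and III they were 0.03, 0.02 and 0.03. The biogenesis median was −0.65 with quantile normalization. The part of level and scaling in the ribosomal protein difference was not tested.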

How the data were processed

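Directional libraries of total RNA were sequenced for 4 genotypes, 1 sample each. The deposited table gives FPKM per gene and, in columns of their own, lower and upper bounds. Its name mentions 2 replicates; the sources used here do not give how they were combined, the level of the bounds, the genome build, the annotation or strand use. The tools named in the submitters' processing notes are TopHat2 2.0.9 and Cufflinks 2.1.1. Columns labelled crf1d were assigned to the ifh1 knockout, crf1 being a synonym of ifh1. Every column of values was mapped to a genotype.

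Of the gene models, 5107 were found in RefSeq ASM294v3, 96.6% of all models with the same coding boundaries; gene symbols and product wording come from it. Left out were the 2 deleted genes, 613 genes under 10 FPKM only, 193 under 300 bp only and 38 under both minima; 215 gene models were listed at 0 in all 4 genotypes. Nearest the FPKM minimum were SPCPB16A4.06c inside (mean 10.1, difference 0.44) and taf51 outside (mean 9.98, difference −0.36); the shortest gene kept had 300 bp and the longest left out for length 294 bp. Differences of log2(FPKM + 1) were computed with Python 3.11.15 and pandas, without further scaling, as the deposited FPKM had size factors of 1.01 and 0.99 by the median of ratios. With 1 sample per genotype no test was made, and the true depth is unknown. Of 24521 bounds under 500 steps, 99.5% lay within 0.05 of whole multiples of 0.237 per kilobase, the same step in all genotypes, from which fragments at the midpoints were computed. The median half-width of the bounds was 32.5% of the midpoint in the sfp1 knockout against 32.1% in the ifh1 knockout above 1000 fragments, and 46.4% and 47.1% at 20 to 100 fragments. FPKM was a median of 2.10 and 2.08 times the midpoint at 300 to 500 bp and 1.00 times from 2000 bp on.

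Members and gene lists were chosen with earlier results of these data known, and 29 lists were trimmed by annotation. Genes named were the 15 largest differences each way, the 10 largest each way with bounds apart, and the 3 regulators. Also eligible were the 3 members of each list farthest in the direction of its median. For several lists some of these were not named, and for iron genes none was. Other genes named were chosen after their values were seen. The arithmetic was checked by putting known differences, without noise, into the deposited values. That check does not bear on how reliable the difference of a single gene is.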

Additional observations from a re-analysis of the deposited data

How the results depend on the processing

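The 2-fold counts of 64 higher and 76 lower genes became 264 and 315 at a 1.5-fold limit and 35 and 46 among genes of at least 1000 bp. Under the other settings they were within 1.5 times of these counts, for example 45 and 54 with a pseudocount of 10, 91 and 87 with a minimum of 1 FPKM, and 49 and 59 with bounds apart. List medians moved by 0.2 or more in 5 cases of 369: with quantile normalization to 0.11 for all ribosomal protein genes, 0.078 for the large and 0.14 for the small subunit, at 1000 bp to −0.48 for snoRNP proteins, and at 500 bp, a setting chosen after seeing the data, to 0.70 for core stress genes. No median of at least 0.2 in size changed sign; cause was not tested. The biogenesis median ran from −0.76 to −0.63 and the uptake median from −0.73 to −0.61 over 13 settings. Of the 140 genes past the limit, 48 were under it in 1 or more settings that kept them, and 0 changed sign. Those named here were snz1, lys3, opt3, hri1, met17, eca39, SPAC227.17c, arg4, ght5, tsr1, ctr4, gut2, hsp3103 and hsp3104. At 1000 bp ribosomal protein lists had fewer than 5 genes and no median. No paired analysis was possible because each genotype had 1 sample, and no sample could be left out. The bounds, not replicates, are the only error given, and they are widest for short and low genes.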

Other observations

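Some single genes were picked from the annotation after their values were seen, and stand for no counted group. Of these, several act on vitamin B6. The pyridoxal phosphate synthase gene snz1 was at 2402 FPKM in the sfp1 knockout versus 1066 in the ifh1 knockout (difference 1.17, bounds overlapping, and 0.90 with quantile normalization), and its glutaminase partner sno1 at 294.9 and 120.5 FPKM (1.28). The pyridoxal reductase gene plr1 was at 700.0 and 314.6 FPKM (1.15), and SPBC725.03, a pyridoxamine phosphate oxidase gene, at 50.4 and 15.0 (1.68). The vitamin B6 importer gene bsu1 was on the other side, at 485.0 and 715.6 FPKM (−0.56). The uracil phosphoribosyltransferase gene urg2 was at 59.2 and 20.6 FPKM (1.48) and the uridine hydrolase gene urh1 at 55.0 and 21.7 (1.30), while urg3 was at 0.31.

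The genes ani1 (321.0 and 766.6 FPKM, −1.25) and ani2 (81.5 and 211.1 FPKM, −1.36), each for an FKBP-type isomerase, were lower by 2-fold or more without sfp1. So were zpr1, whose product binds elongation factor EF-1 alpha (−1.28), and the nucleolin gene gar2 (−1.30). The eIF2 alpha kinase gene hri1 was at 37.6 FPKM in the sfp1 knockout versus 17.3 in the ifh1 knockout (1.08, or 0.80 with a pseudocount of 10). The TORC1 kinase gene tor2 (0.06) and the Rheb gene rhb1 (−0.14) were near 0.

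Of 4279 pairs of neighbouring genes kept, 9 had both members past the 2-fold limit, 8 of them in the same direction. Among these, mmf1 and rpl1603 are transcribed away from each other with 571 bases between their annotated transcripts, at 1.38 and 1.53, and lys3 and SPAC227.17c with 96 bases between, at 1.10 and 1.02; the latter was at 0.84 by the midpoints of the bounds. The pair mpf2 and ggc1 lies in tandem with 421 bases between, at −1.43 and −1.60. Whether neighbours share reads was not tested.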
